A study of Mus musculus with 3 samples.

Results

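Nuclear receptors and coregulators are described here as 42 genes, taken from the deposited table by gene symbol: 31 nuclear receptor genes, 5 coregulator genes and 6 genes that bind, make or break down retinoic acid. All 42 were among the 39377 rows of the table. The samples were whole hippocampus of wild-type (WT) C57BL/6 mice at postnatal day 14, a tissue of mixed cell types, and formed 1 group of 3 libraries of total RNA, called libraries 1, 2 and 3. The series title names iron homeostasis and neurogenesis after birth. All samples analysed here were WT, so comparisons were made between genes within the same libraries. No label ties the libraries to separate animals, and a p-value here reflects only how far these samples vary, which may be technical variation.

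Nuclear receptors are transcription factors that bind DNA through zinc fingers and, in many cases, a small lipophilic ligand such as retinoic acid, an oxysterol, a fatty acid or a steroid. Retinoid X receptors (RXR) form heterodimers with retinoic acid receptors (RAR), peroxisome proliferator-activated receptors (PPAR), liver X receptors (LXR), the vitamin D receptor and some NR4A receptors. Coactivators of the p160 family and corepressors such as NCOR1 bind the receptors and recruit enzymes that modify histones. In the hippocampus, orphan receptors of the tailless and COUP-TF families are known from neural stem cells, regional patterning and interneurons, and NR4A genes are known as immediate early genes.

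Levels are FPKM (fragments scaled by transcript length and by the mapped fragments of the library), which are per length and can be compared between genes, although GC content and mappability also affect them. Depth, estimated from the steps between low values, was about 3688000, 4140000 and 6037000 fragments in libraries 1, 2 and 3. Markers of hippocampal excitatory neurons were at 1 FPKM or more on average in 5 of 5 cases, led by Slc17a7, which encodes a vesicular glutamate transporter, at 452 ± 38.6 FPKM (SD, n = 3, as for all values after ± below unless an SE is named). Their summed level was 548 to 633 FPKM. Of markers of neighbouring tissue, 4 of 4 for thalamus, 5 of 5 for cortex and 2 of 5 for striatum reached 1 FPKM, with summed levels of 21.1 to 22.5, 28.5 to 34.5 and 14.3 to 18.5 FPKM. Choroid plexus markers differed most between libraries: all 6 were above 0 in every library and lowest in library 1, and their sum was 399, 1086 and 1312 FPKM in libraries 1, 2 and 3, mostly Ttr, the transthyretin gene. In bulk tissue, fewer cells of a type and less RNA per cell cannot be told apart.

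The most abundant of the 42 genes were Aldh1a1 at 44.9 ± 6.38 FPKM, Ncor1 at 43.3 ± 13.0 FPKM and Nr2f1 at 35.0 ± 2.04 FPKM, followed by Rxrb at 21.5 ± 1.46 FPKM and Esrra at 18.0 ± 1.28 FPKM. In all, 11 genes were over 10 FPKM, 22 lay from 1 to 10 FPKM and 9 were under 1 FPKM. Of the 42, 39 were above 0 in every library. The median of the 42 means was 3.31 FPKM, and that of the 19046 genes above 0 in at least 1 library was 4.57 FPKM. When the genes were put in order of their means, the ranges of neighbours over the 3 libraries overlapped in 38 of 41 cases. The neighbours whose ranges did not overlap were Nr2f1 over Rxrb, Rxrb over Esrra, and Rorb over Pparg. Most neighbours were thus not resolved from each other, while genes further apart in the order, such as Ncoa1 and Ncoa3, could be without overlap.

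**Figure D1:**
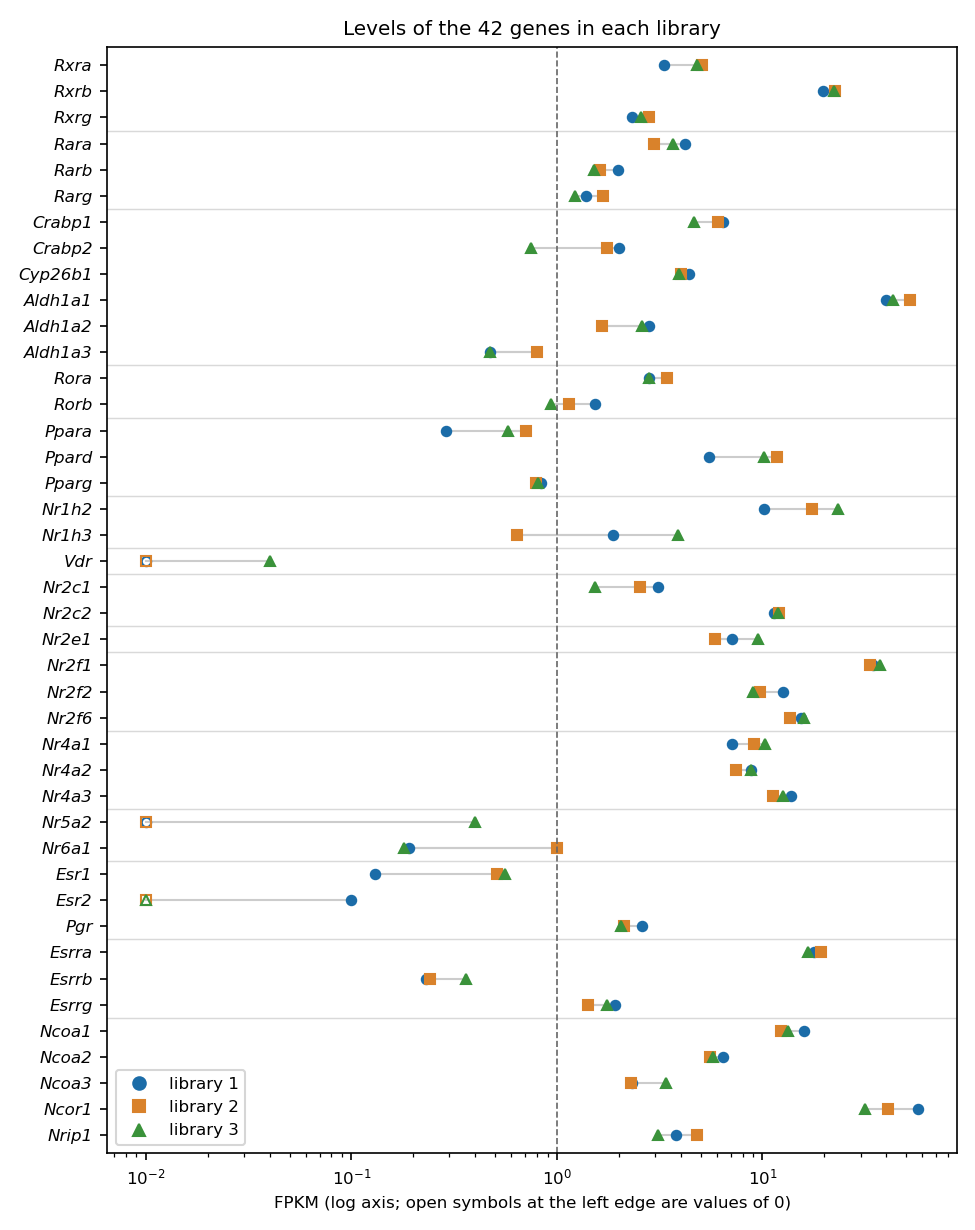
FPKM on a log axis (horizontal) of each of the 42 genes (rows, grouped by role) in libraries 1, 2 and 3. The dashed line marks 1 FPKM; 33 genes have a mean at or above it, and Nr1h3, Nr6a1 and Esr1 show the widest ranges among genes above 0 in every library.

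The 33 genes with a mean of at least 1 FPKM were tested against the median gene of their library, which stood at 10.5, 10.3 and 10.2 FPKM in libraries 1, 2 and 3. The test was limma on log2(FPKM + 1), with a 2-fold difference (1 log2 unit) as the null and Benjamini-Hochberg adjustment over the 13337 genes at or above that mean. Each SE is that of limma, which draws the variance of a gene toward that of all genes tested. Of the 33, 3 were higher than the median gene by more than 2-fold, where 26% of all genes tested were. Another 13 were lower by more than 2-fold, where 22.3% of all genes tested were, and 17 were not called. The median difference of the 33 genes was -0.76 log2 units, and that of all genes tested was -0.01. The 3 higher genes were Aldh1a1 by 2.01 log2 units (SE 0.113, limma adjusted p = 0.000637), Ncor1 by 1.92 (SE 0.169, limma adjusted p = 0.00405) and Nr2f1 by 1.67 (SE 0.0916, limma adjusted p = 0.00136), each in 3 of 3 libraries. The 13 lower genes were Rara, Rarb, Rarg, Rxrg, Rora, Rorb, Nr1h3, Nr2c1, Pgr, Esrrg, Ncoa3, Aldh1a2 and Crabp2, with differences of -2.37 to -1.31 log2 units and lower in 3 of 3 libraries each. The call of Rara was lost without library 2 or 3 (limma adjusted p = 0.168 and 0.0949), and that of Nr1h3 without library 1 or 2 (limma adjusted p = 0.0742 and 0.0584). The calls depend on the filter on low values, which sets the median gene. With no filter the median moved by -1.04 log2 units, the 3 higher calls were kept with 7 new ones, and 12 of the 13 lower calls were lost. Rorb alone was kept as lower there (limma adjusted p = 0.0247), beside the 9 genes under 1 FPKM. With a minimum mean of 5 FPKM the median moved by 0.79 log2 units, all 3 higher calls were lost (limma adjusted p = 0.109 for Aldh1a1, 0.461 for Ncor1 and 1 for Nr2f1) and the 13 lower genes were not tested. Crabp1 and Ncoa2 were called lower in that case.

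**Figure D2:**
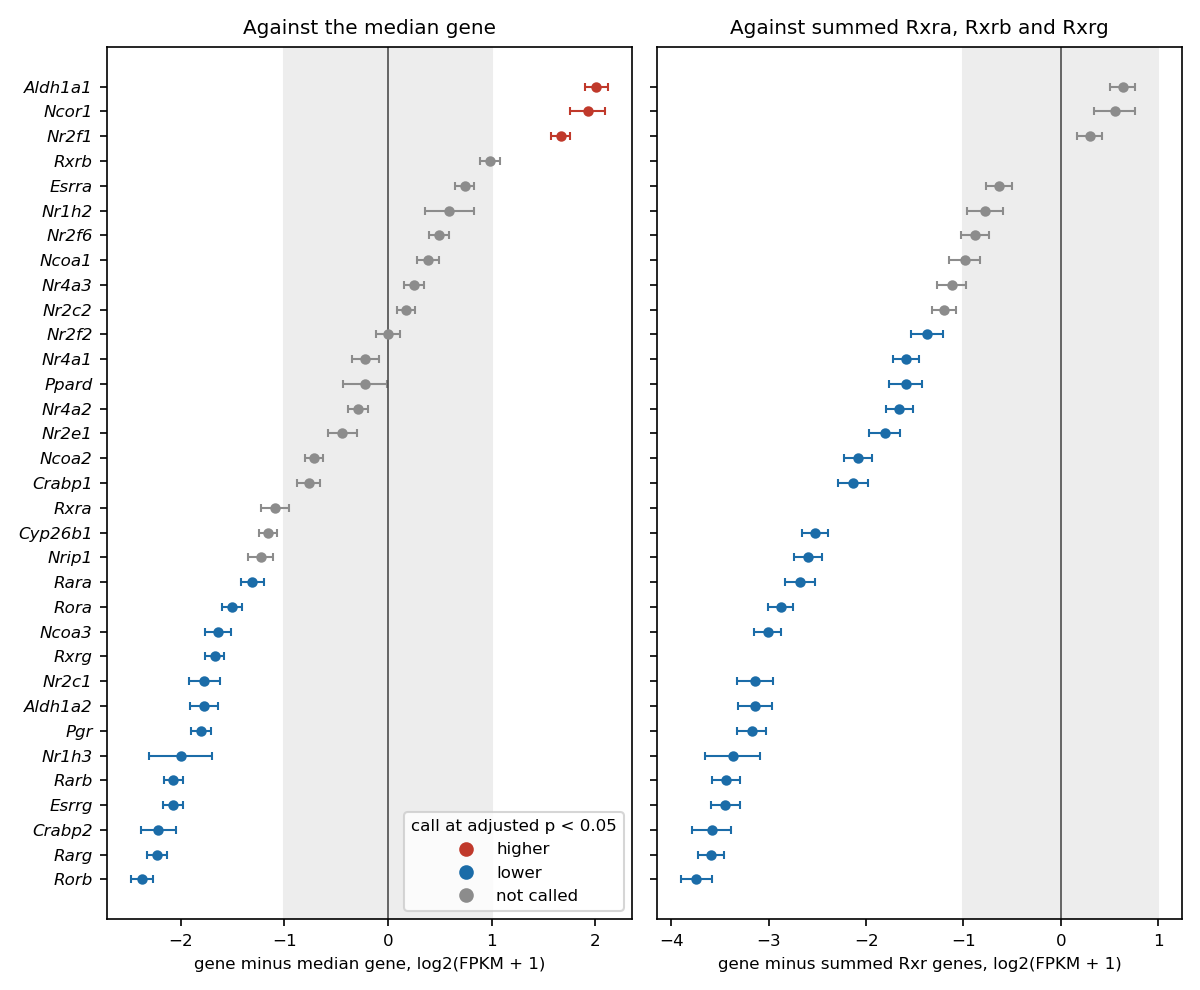
Difference of each of 33 genes (rows) from the median gene of its library (left), in log2(FPKM + 1). On the right, 30 of them are set against the summed Rxra, Rxrb and Rxrg. Points are means over 3 libraries, lines are the SE from limma, which pools variance over genes, and the grey band is the null of the test. On the left 3 genes are called higher and 13 lower, and on the right 0 are called higher and 21 lower.

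Among the RXR genes, whose products are the shared dimer partners, Rxrb was the main transcript. Rxrb (chr17:34031812-34038399 in GRCm38, plus strand) stood at 19.8, 22.4 and 22.2 FPKM in libraries 1, 2 and 3. Rxra stood at 3.30, 5.07 and 4.79 FPKM, and Rxrg at 2.32, 2.82 and 2.56 FPKM. The ranges did not overlap, and Rxrb made up 75.6% ± 2.00 of the summed FPKM of the 3 genes, Rxra 15.3% ± 2.02 and Rxrg 9.04% ± 0.328. Rxrb was 2.07 log2 units above Rxra (SE 0.252), with a limma adjusted p of 3.34e-05 and in 3 of 3 libraries, in a comparison where 41.3% of all genes were higher than Rxra by more than 2-fold. Rxrg differed from Rxra by -0.58 log2 units (SE 0.252), which was not called, while 0.322% of all genes were called lower.

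The RAR genes, which encode the receptors that carry the retinoic acid signal, were lower in level. Rara was at 4.19, 2.95 and 3.68 FPKM, Rarb at 1.98, 1.62 and 1.52 FPKM, and Rarg at 1.38, 1.68 and 1.23 FPKM in libraries 1, 2 and 3. Rara lay above both others in every library, and Rarb and Rarg overlapped. Rara made up 53.3% ± 5.36 of the summed 6.74 ± 0.704 FPKM of the 3 genes. Rarb differed from Rara by -0.76 (SE 0.180) and Rarg by -0.92 log2 units (SE 0.186), neither called by limma against the 2-fold null. In that comparison 0% of all genes were called lower than Rara, 9 of them at an unadjusted p under 0.05, and 48.2% were called higher. Of the exon bases of Rarb, 34.1% are shared with Top2b, a topoisomerase gene on the other strand at 19.4 FPKM on average. Whether counting used strand is not given in the sources used here, so the value of Rarb is uncertain.

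The Rarb promoter holds the classical retinoic acid response element, and it is shown because it was the only promoter among those of the 38 genes matched in the RefSeq table (GRCm38.p6, 60 promoters) with a spaced repeat of this form. The windows run from 250 bases before to 50 after a start. The letters searched were GTTCA followed by any 6 bases and GTTCA again, on both strands, found in 0.0761% of the 32851 promoters of the table. The element lies 52 to 37 bases before the start. This start is inside the annotated gene, which begins at chr14:16819156 on the minus strand. The 250 bases before the start are given 5′ to 3′ on the minus strand, chr14:16575477-16575726, with the element in capitals.
Rarb: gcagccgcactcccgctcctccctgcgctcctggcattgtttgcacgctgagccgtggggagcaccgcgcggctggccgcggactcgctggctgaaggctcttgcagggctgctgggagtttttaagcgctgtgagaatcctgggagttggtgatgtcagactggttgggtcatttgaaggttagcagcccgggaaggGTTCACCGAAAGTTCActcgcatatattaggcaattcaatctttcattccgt
The match is a description of these letters, and binding was not measured.

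The element that NR4A receptors bind as monomers, named NGFI-B response element after the product of Nr4a1, was searched as AAAGGTCA on both strands and is shown because it fell in RXR promoters. It was found in 1.51% of all promoters and in 2 of the 60 promoters of the 38 genes, 1 of Rxra and 1 of Rxrg. Both belong to starts inside the annotated genes, which begin at chr2:27676440 for Rxra and chr1:167598384 for Rxrg. The shorter core AGGTCA, which the longer element contains, was in 16.3% of all promoters and in 8 of the 60, which belong to 7 genes. The 30 bases around the longer element, on the plus strand and with the element in capitals, are chr2:27709231-27709260 for Rxra and chr1:167618164-167618193 for Rxrg.
Rxra: tgggtggcaggAAAGGTCAgtcactctctg
Rxrg: gatcggggttgAAAGGTCAgctgaaagctt
The related element TCAAGGTCA of oestrogen-related receptors was in 0.423% of all promoters and in 0 of the 60.

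Genes that handle retinoic acid were led by Aldh1a1, which encodes a retinaldehyde dehydrogenase, an enzyme that makes retinoic acid. Aldh1a1 (chr19:20492715-20643465, plus strand) was at 39.7, 52.1 and 43.05 FPKM in libraries 1, 2 and 3, and made up 93.7% ± 1.60 of the summed FPKM of the 3 retinaldehyde dehydrogenase genes. It was lowest in library 1 and highest in library 2. So was the summed level of 5 astrocyte markers, at 756, 969 and 925 FPKM, and of 5 microglia markers, at 87.7, 91.1 and 90.0 FPKM. Of the astrocyte markers, Slc1a2, Gfap and Gja1 had this order, while Aldh1l1 was highest in library 1 and Aqp4 in library 3. The part of these cells in the level of Aldh1a1 was not tested. Aldh1a2, the main enzyme gene of the embryo and a gene of the meninges, was at 2.82, 1.66 and 2.59 FPKM, and Aldh1a3 at 0.47, 0.80 and 0.47 FPKM. The 3 ranges did not overlap. Markers of meninges and fibroblasts were at 1 FPKM or more in 7 of 7 cases. Their summed level was 89.5, 90.7 and 85.9 FPKM in libraries 1, 2 and 3, highest in library 2, where Aldh1a2 was lowest. Of the single markers, only Dcn was highest in library 2, and Pdgfra was lowest there, as Aldh1a2 was. The markers were led by Dcn, the decorin gene, at 33.9 to 47.3 FPKM, and then Pdgfra at 23.2 ± 3.72 FPKM. Lum, Col1a1, Col1a2, Col3a1 and Ogn had means of only 1.44 to 7.31 FPKM, so the sum was mostly Dcn and Pdgfra. The part of meninges and fibroblasts in the level of Aldh1a2 was not tested.

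Cyp26b1, which encodes an enzyme that breaks down retinoic acid, was at 4.38, 4.0 and 3.92 FPKM, a coefficient of variation of 5.99%. Crabp1 and Crabp2 encode cytosolic binding proteins of retinoic acid. Crabp1 was at 6.46, 6.09 and 4.62 FPKM, and Crabp2 at 2.01, 1.76 and 0.75 FPKM, below Crabp1 in each library. Their transcripts are short, 802 and 931 bases, so that the values rested on about 12 to 15 and 3 to 5 fragments per library. The spread of Crabp2, with a coefficient of variation of 44.3%, was no wider than the 48.0% that counting alone would give at this depth.

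Retinoid genes outside the 42 were counted in a list of 13 genes, of which 9 were tested against the median gene. By more than 2-fold, 3 were higher and 1 lower, where 26% of all genes tested were higher and 22.3% lower. The higher ones were Ttr, which carries retinol-binding protein in blood and is made by choroid plexus, Fabp5, a fatty acid binding protein gene, at 740 ± 24.9 FPKM, and Rdh14, a retinol dehydrogenase gene, at 28.5 ± 2.01 FPKM. The lower one was Stra6, the gene of the retinol-binding protein receptor, at 2.02 ± 0.347 FPKM. Of the other retinoic acid hydroxylase genes, Cyp26a1 was at 0.423 ± 0.179 FPKM and Cyp26c1 was listed at 0 in all 3 libraries.

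The 30 other tested genes were set against the summed FPKM of the 3 RXR genes, 28.4 ± 2.64 FPKM. These 30 include receptors that pair with RXR as well as other receptors, coregulators and retinoid genes. Each single gene was set against a sum of 3, so a lower call is not one of its whole family. Family sums, which were not tested, were 6.74 FPKM for RAR, 10.5 for PPAR, 19.1 for LXR, 29.7 for NR4A and 60.4 for COUP-TF. Of the 30, 21 were lower than this sum by more than 2-fold, where 50.7% of all genes tested were. By limma 0 of the 30 were called higher, and 0 at an unadjusted p under 0.05, where 10.6% of all genes tested were called higher. The differences of the RAR genes from the sum were -2.68 (Rara, SE 0.159), -3.44 (Rarb, SE 0.147) and -3.60 log2 units (Rarg, SE 0.133), and that of Ppard was -1.59 (SE 0.172), all called lower. Of the LXR genes, Nr1h3 was called lower, with a difference of -3.37 log2 units (SE 0.282), and Nr1h2, at -0.78 (SE 0.189), was not called. Those of Nr4a1 and Nr4a2, -1.59 and -1.66 log2 units (SE 0.131 and 0.143), were called, and that of Nr4a3, -1.12 (SE 0.148), was not. The call of the orphan receptor gene Nr2f2 against the sum was lost without library 2 or 3 (limma adjusted p = 0.154 and 0.277, against 0.0490 with all libraries).

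The LXR genes encode oxysterol receptors that govern cholesterol export. Nr1h2, the LXRβ gene, was at 10.15, 17.4 and 23.4 FPKM in libraries 1, 2 and 3, and Nr1h3, the LXRα gene, at 1.87, 0.64 and 3.86 FPKM. Nr1h2 was the higher gene in each library and made up 88.9% ± 6.56 of the sum. Nr1h3 differed from Nr1h2 by -2.59 log2 units (SE 0.388, limma adjusted p = 0.000114, lower in 3 of 3 libraries), in a comparison where 25.6% of all genes were lower and 13.2% higher than Nr1h2. Without library 2 this call was lost (limma adjusted p = 0.117). Both genes varied widely between libraries, by a coefficient of variation of 39.1% for Nr1h2 and 76.5% for Nr1h3. Counting error alone would be about 8.33% and 23.4%. The order of the libraries for Nr1h2 was the same as for the summed choroid plexus markers, though Kl and Otx2 among them did not have it. It was also that of the summed markers of the oligodendrocyte lineage, 955, 1017 and 1096 FPKM, of neighbouring cortex, and of estimated depth. The part of any of these in the spread of Nr1h2 was not tested.

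Of the PPAR genes, receptors for fatty acids, Ppard was the main transcript at 5.47, 11.8 and 10.1 FPKM in libraries 1, 2 and 3, and made up 86.5% ± 3.16 of the sum. Pparg was at 0.84, 0.79 and 0.81 FPKM and Ppara at 0.29, 0.71 and 0.58 FPKM, both under the level tested. Ppard was lowest in library 1, as were the choroid plexus markers and the summed markers of astrocytes, microglia, the oligodendrocyte lineage and neighbouring cortex. It was highest in library 2, while the choroid plexus sum was highest in library 3. The part of these tissues in the level of Ppard was not tested. Its coefficient of variation of 35.8% was above the 8.77% of counting error. The ranges of Pparg and Ppara did not overlap, but Pparg rested on at most about 6 to 9 fragments and Ppara on at most about 3 to 11 per library. Of 11 known targets of LXR and PPAR tested against the median gene, 1 was lower by more than 2-fold, where 22.3% of all genes tested were. It was Abcg1, a cholesterol exporter gene, at 3.76 ± 0.257 FPKM. The phospholipid remodelling gene Lpcat3, at 13.8 ± 1.85 FPKM, and the carnitine palmitoyltransferase gene Cpt1a, at 12.1 ± 0.911 FPKM, were not called.

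The vitamin D receptor gene Vdr was listed at 0, 0 and 0.04 FPKM in libraries 1, 2 and 3. For the longest Vdr transcript, 3 fragments would be 0.199, 0.176 and 0.122 FPKM, so levels below these could not be told from 0 at this depth. Nr5a2, which encodes the orphan receptor LRH-1, was listed at 0, 0 and 0.40 FPKM, and Nr6a1, the germ cell nuclear factor gene, stood at 0.19, 1.00 and 0.18 FPKM. For Nr6a1 library 2 was the high one, with at most about 25 fragments, and libraries 1 and 3 had at most about 4 and 7. In library 3 the value of Nr5a2 came from at most about 11 fragments.

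The COUP-TF genes, which encode orphan receptors that pattern the cortex and hippocampus and guide interneurons, had the highest summed level of the receptor families among the 42 genes, 60.4 ± 3.16 FPKM. Nr2f1 (COUP-TFI; chr13:78188973-78199757, minus strand) was at 34.3, 33.4 and 37.3 FPKM in libraries 1, 2 and 3, and its coefficient of variation of 5.82% was close to the 4.57% of counting error. Nr2f2 (COUP-TFII) was at 12.5, 9.74 and 9.02 FPKM, and Nr2f6 at 15.3, 13.6 and 15.95 FPKM. Nr2f1 lay above both in every library, with 58.0% ± 2.49 of the sum. Nr2f2 differed from Nr2f1 by -1.67 log2 units (SE 0.137, limma adjusted p = 0.00341, lower in 3 of 3 libraries), in a comparison where 57.6% of all genes were lower and 8.82% higher. Nr2f6 differed from Nr2f1 by -1.18 log2 units (SE 0.0990, limma adjusted p = 0.0957) and was not called. Of the exon bases of Nr2f6, 54.4% are shared with Ocel1 on the other strand, at 5.29 FPKM on average, so its value is uncertain.

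Nr2e1, the tailless gene that keeps adult neural stem cells undifferentiated, was at 7.10, 5.89 and 9.48 FPKM in libraries 1, 2 and 3. It was not called against the median gene. The testicular receptor gene Nr2c2 was at 11.4, 12.1 and 11.85 FPKM, with a coefficient of variation of 2.81%, the smallest of the 33 tested genes. Nr2c1 was at 3.09, 2.54 and 1.54 FPKM, and Nr2c2 made up 83.3% ± 4.93 of the sum of both. Of the exon bases of Nr2c2, 30.7% are shared with Mrps25, a mitochondrial ribosomal protein gene on the other strand at 25.6 FPKM on average.

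**Figure D3:**
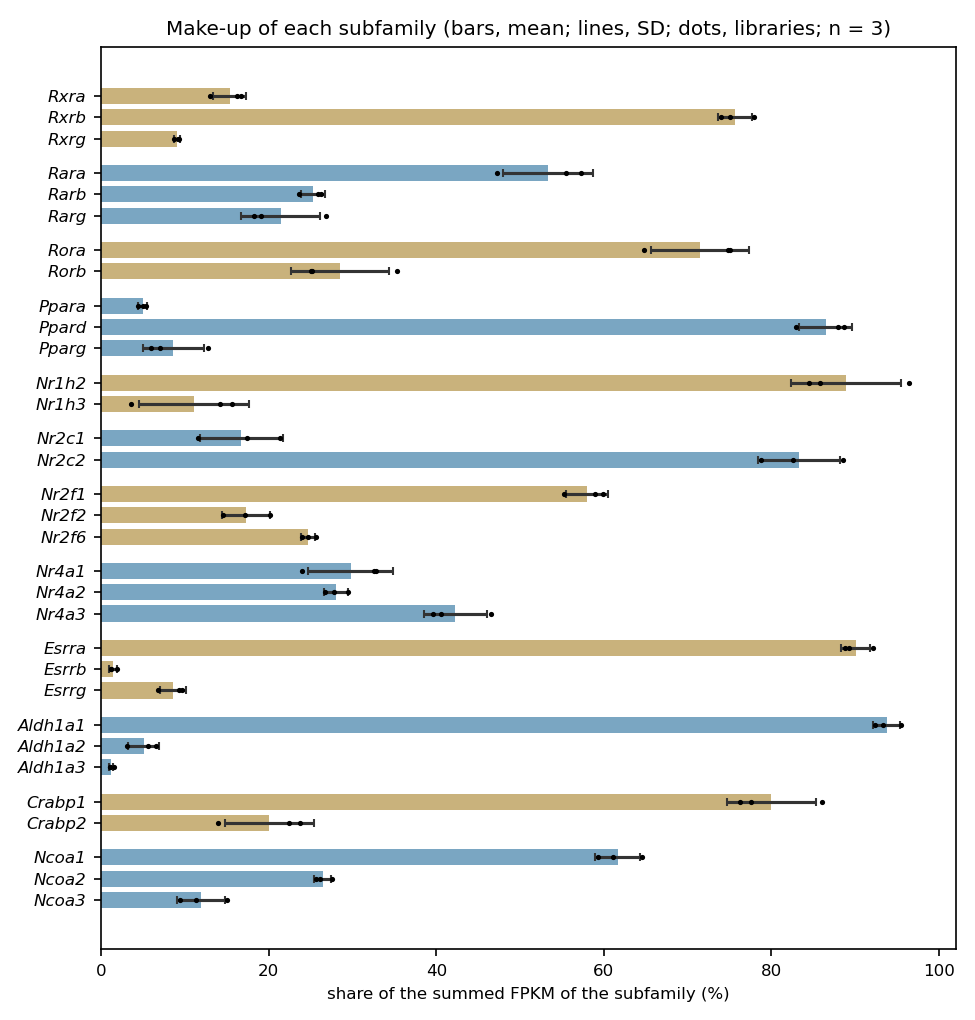
Share of each gene (rows) in the summed FPKM of its subfamily, in percent; bars are means, lines are SD and dots are the 3 libraries. Rxrb, Crabp1, Nr2c2, Ppard, Nr1h2, Esrra and Aldh1a1 hold from 75.6% (Rxrb) to 93.7% (Aldh1a1) of theirs, while the 3 NR4A genes hold 28.0% to 42.3%.

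The NR4A genes, orphan receptors induced by neuronal activity, were at like levels. Nr4a3 was at 13.8, 11.3 and 12.5 FPKM in libraries 1, 2 and 3, Nr4a1 at 7.10, 9.13 and 10.3 FPKM, and Nr4a2 at 8.76, 7.42 and 8.78 FPKM. Nr4a3 lay above both others in every library, with 42.3% ± 3.77 of the sum, and Nr4a1 and Nr4a2 overlapped. Against Nr4a1, Nr4a2 differed by -0.07 log2 units (SE 0.244) and Nr4a3 by 0.47 (SE 0.244), and neither was called by limma. In that comparison 16.4% of all genes were called lower and 26.2% higher. No gene of the family was called against the median gene.

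All 3 NR4A promoters held 4 copies of TGACG, the core of the cAMP response element, counted on both strands. At least 1 copy was in 20.8% of the 32851 promoters and in 16 of the 60 promoters of the 38 genes. At least 4 copies were in 0.231% of all promoters and in 3 of the 60, those of the NR4A genes. The whole element TGACGTCA, which contains the core on each strand, was in 1.79% of all promoters and in 2 of the 60, those of Nr2e1 and Nr6a1. The promoters are shown because their core copies are what the 3 genes share; they were picked after the match was seen. The 250 bases before each start are given 5′ to 3′ on the strand of the gene, with copies in capitals, as TGACG or, on the other strand, CGTCA. They are chr15:101266596-101266845 (plus strand) for Nr4a1, chr2:57124004-57124253 (minus strand) for Nr4a2 and chr4:48045055-48045304 (plus strand) for Nr4a3. The starts of Nr4a1 and Nr4a3 lie inside the annotated genes, which begin at chr15:101254269 and chr4:48045153, and that of Nr4a2 is where its gene begins.
Nr4a1: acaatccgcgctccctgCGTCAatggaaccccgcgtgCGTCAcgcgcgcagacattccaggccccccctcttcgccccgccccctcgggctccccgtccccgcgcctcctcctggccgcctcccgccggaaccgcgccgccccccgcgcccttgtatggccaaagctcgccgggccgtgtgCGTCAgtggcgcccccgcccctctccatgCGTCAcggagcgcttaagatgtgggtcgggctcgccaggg
Nr4a2: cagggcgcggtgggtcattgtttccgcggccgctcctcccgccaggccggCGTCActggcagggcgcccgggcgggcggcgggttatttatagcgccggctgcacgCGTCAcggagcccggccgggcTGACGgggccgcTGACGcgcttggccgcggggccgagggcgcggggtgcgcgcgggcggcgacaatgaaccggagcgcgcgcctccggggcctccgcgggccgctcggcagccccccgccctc
Nr4a3: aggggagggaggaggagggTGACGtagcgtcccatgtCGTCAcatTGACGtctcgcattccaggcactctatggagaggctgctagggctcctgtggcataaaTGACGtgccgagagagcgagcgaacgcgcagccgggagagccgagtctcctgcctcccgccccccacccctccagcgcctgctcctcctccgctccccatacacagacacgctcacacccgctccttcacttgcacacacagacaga
Binding of a factor to these letters was not measured.

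Rora and Rorb encode ROR receptors, known from the cerebellum and from sensory cortex. Rora was at 2.81, 3.42 and 2.79 FPKM and Rorb at 1.53, 1.14 and 0.940 FPKM in libraries 1, 2 and 3, without overlap. Rorb differed from Rora by -0.87 log2 units (SE 0.146), which limma did not call. In that comparison 0% of all genes were called lower than Rora, 0 of them also at an unadjusted p under 0.05, and 53.1% were called higher. Rorb is itself 1 of 5 listed markers of neighbouring cortex. The part of neighbouring tissue in the level of Rorb was not tested.

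Of the steroid receptors among the 42, Pgr, the progesterone receptor gene, was the highest at 2.60, 2.13 and 2.04 FPKM in libraries 1, 2 and 3. Esr1, the oestrogen receptor α gene, was at 0.13, 0.51 and 0.56 FPKM, and Esr2, the oestrogen receptor β gene, at 0.10, 0 and 0 FPKM. The ranges did not overlap, and Pgr differed from the median gene by -1.80 log2 units (SE 0.0934, limma adjusted p = 0.00073). The values of Esr1 rested on at most about 3, 13 and 20 fragments, and that of Esr2 in library 1 on about 1.

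The oestrogen-related receptor genes encode orphan receptors that govern mitochondrial genes. Esrra (chr19:6910977-6921813, minus strand) was at 17.9, 19.3 and 16.7 FPKM in libraries 1, 2 and 3, and made up 90.0% ± 1.77 of the sum. Esrrg was at 1.92, 1.42 and 1.75 FPKM and Esrrb at 0.23, 0.24 and 0.36 FPKM, and the ranges did not overlap. Esrrg differed from Esrra by -2.82 log2 units (SE 0.130, limma adjusted p = 2.3e-05, lower in 3 of 3 libraries), in a comparison where 38% of all genes were lower and 16.7% higher. Esrrb was under the level tested. The spread of Esrra, a coefficient of variation of 7.14%, was no wider than its counting error of 7.86%. Of the exon bases of Esrra, 1.66% are shared with Trmt112 on the other strand.

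Of the 5 coregulators among the 42 genes, Ncor1, the gene of a corepressor that recruits histone deacetylase 3, was the highest. Ncor1 (chr11:62316426-62458541, minus strand) was at 57.3, 41.0 and 31.6 FPKM in libraries 1, 2 and 3. Ncoa1, Ncoa2 and Ncoa3 encode the p160 coactivators. Ncoa1 was at 16.0, 12.3 and 13.3 FPKM, Ncoa2 at 6.45, 5.56 and 5.76 FPKM, and Ncoa3 at 2.33, 2.29 and 3.38 FPKM, without overlap. Ncoa1 made up 61.6% ± 2.66 of the p160 sum. Nrip1, which encodes the ligand-dependent corepressor RIP140, was at 3.81, 4.78 and 3.09 FPKM.

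Against Ncoa1, Ncor1 was 1.54 log2 units higher (SE 0.170, limma adjusted p = 0.0114), in a comparison where 19.7% of all genes were higher and 29.4% lower. Ncoa3 differed by -2.03 (SE 0.171, limma adjusted p = 0.000243) and Nrip1 by -1.61 log2 units (SE 0.175, limma adjusted p = 0.00708), each lower in 3 of 3 libraries. Ncoa2 differed by -1.10 log2 units (SE 0.151) and was not called. The call of Ncor1 was lost without library 1 or 2 (limma adjusted p = 0.0635 and 0.0820), and that of Nrip1 without library 1 or 3 (limma adjusted p = 0.0555 and 0.0928). Over all subfamilies, 15 such differences between members were tested and 7 were called, 2 higher and 5 lower.

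Coregulators outside the 42 were counted in a list of 19 genes, of which 17 were tested against the median gene. By more than 2-fold, 4 were higher and 1 lower, and the share called higher was near the 26% of all genes tested, where 22.3% were lower. The higher ones were Prmt1, a protein arginine methyltransferase gene, at 192 ± 10.9 FPKM, Hdac3, the histone deacetylase gene of the NCOR complex, at 54.1 ± 1.73 FPKM, the ferritin receptor gene Ncoa4 at 45.1 ± 1.46 FPKM and the histone demethylase gene Kdm1a at 39.6 ± 0.925 FPKM. The lower one was Crebbp, a histone acetyltransferase gene, at 3.55 ± 0.521 FPKM. Of 17 other nuclear receptors, 6 were tested, 1 was higher and 0 were lower than the median gene by limma (0 lower also at an unadjusted p under 0.05). Of the 17, 7 were listed at 0 in all 3 libraries, as were 20331 of the 39377 rows of the table. The higher one was Thra, the thyroid hormone receptor α gene, at 780 ± 28.7 FPKM. The last exons of Thra and Nr1d1 overlap on opposite strands, so their values are uncertain. Next came the mineralocorticoid receptor gene Nr3c2 at 16.3 ± 1.05 FPKM and the clock repressor gene Nr1d2 at 15.0 ± 2.27 FPKM.

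The spread between libraries was uneven among the 33 tested genes. Genes with means of 5 to 20 FPKM had a median coefficient of variation of 13.7% over the whole table, and genes over 20 FPKM 9.17%. Ncor1 varied by 30.1%, wider than 97.4% of genes with a mean within 2-fold of its own, while counting error alone would give about 2.45%. Nr1h2 varied more than 96.4%, Nr1h3 more than 92.4% and Ppard more than 92.3% of such genes. Nr2c2 and Cyp26b1 varied more than 3.58% and 7.86% of such genes. In all, 16 of the 33 genes varied more than the median of genes at like levels. Library 1 gave the highest value for 15 of the 33 genes, 45.5%, where it did for 36.5% of all genes tested. Ncor1 has 15 annotated coding transcripts of 646 to 9037 bases; how its fragments were assigned to them is not given in the sources used here.

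**Figure D4:**
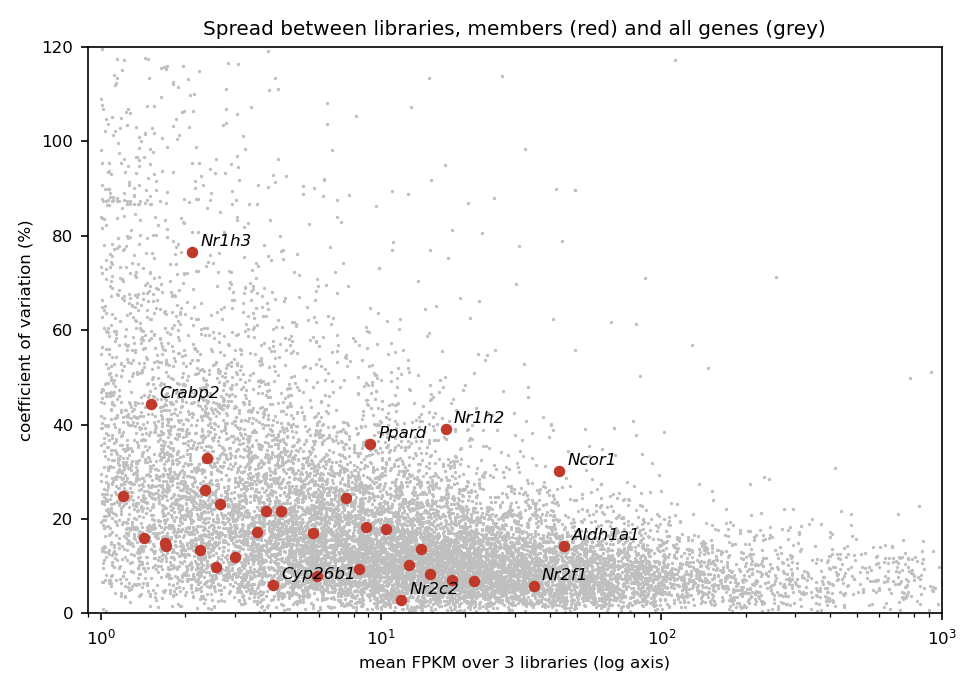
Coefficient of variation over 3 libraries in percent (vertical) against mean FPKM on a log axis (horizontal), for the 33 tested genes in red and all genes with a mean of at least 1 FPKM in grey, within the plotted range. Ncor1, Nr1h2, Ppard and Nr1h3 lie above most genes at their levels, and Nr2c2 lies below most.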

How the data were processed

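Total RNA of hippocampus was sequenced as paired reads of 150 bases in 3 libraries of 1 group, per the labels' protocols. The authors deposited FPKM values, named so per the file headers. The 3 columns, 1 for each library, carry the numbers that the sample titles give. Bowtie2 and GRCm38 (mm10) are named in the submitters' processing notes. What counted the fragments, on which annotation and with what strand setting is not given in the sources used here.

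The 42 genes and the other lists were chosen with earlier results of these data known. Every one of the 42 is named, and of the other lists the 3 genes with the highest means or those called. A result on the LXR and PPAR targets is not reported here. Differences between genes were formed within each library on log2(FPKM + 1) and limma 3.58.1 was run in R 4.3.3 (treat, two-sided, null of at most 1 log2 unit), with Benjamini-Hochberg adjustment over all genes with a mean of at least 1 FPKM and calls at adjusted p under 0.05. This scale understates differences of low genes. An SE from limma is not the SE of the gene's 3 library differences alone. It was the same for Rxrb and Rxrg against Rxra, 0.252, and for Nr4a2 and Nr4a3 against Nr4a1, 0.244. References were the median gene, the summed RXR genes, and Rxra, Rara, Rora, Nr1h2, Nr2f1, Nr4a1, Esrra and Ncoa1 for their subfamilies. Ppara, under 1 FPKM, gave no test. The fit was tested on simulated data.

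Depth was estimated after the data were seen. On genes annotated with 1 transcript, 800 bases or longer, depth and a number of bases taken off the length were chosen so that values of at most 4 fragments came out whole, within 0.15 for 93.5%, 92.7% and 91.7% of them. Fragment numbers assume the longest coding transcript in GENCODE M21 (GRCm38) and, like counting errors, cover counting error only. Coordinates of genes are from GENCODE and those of promoters from RefSeq. Python 3.11.15 with pandas 2.3.3 was used. Alternatives were another pseudocount, other filters, a null of no difference, TPM and leaving out each library.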

Additional observations from a re-analysis of the deposited data

How the results depend on the processing

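Against the median gene, the counts of the 33 genes (3 higher, 13 lower) became 10 higher and 10 lower of 42 with no filter on low values, 0 higher and 2 lower with a minimum mean of 5 FPKM, and 7 higher and 20 lower with a null of no difference. With no filter 12 of the 13 lower calls were lost, Rorb was kept and 9 genes under 1 FPKM were added. With the minimum of 5 FPKM all 3 higher calls (Aldh1a1, Ncor1 and Nr2f1) were lost, the 13 lower genes were not tested, and Crabp1 and Ncoa2 were new lower calls. By construction the median gene moves with the filter. Against the summed RXR genes, the counts (0 higher, 21 lower) became 7 lower with the minimum of 5 FPKM and 2 higher with a null of no difference. The 7 called differences between subfamily members became 2 with the minimum of 5 FPKM and 13 with a null of no difference. Over all genes, the counts against the median gene (3474 higher, 2977 lower) became 5955 and 6032 with no filter, 2189 and 1091 with the minimum of 5 FPKM, and 5757 and 5739 with a null of no difference. Against the RXR sum, 6754 lower became 12523 with no filter and 2654 with the minimum, and 1417 higher became 2681 with a null of no difference. With a pseudocount of 0.1, after rescaling to TPM and without any single library, these counts stayed within 1.5 times. Leaving out a library gave 3 higher and 11 to 12 lower against the median gene, 20 to 21 lower against the RXR sum and 5 to 6 called subfamily differences. By single gene, TPM ended the call of Rara against the median gene (limma adjusted p = 0.139) and added a call of Pparg as lower, and the pseudocount of 0.1 brought calls of Cyp26b1 and Nrip1 as lower (limma adjusted p = 0.0237 and 0.0477). No direction of a called difference was reversed in any alternative run. No paired analysis was possible because the libraries form 1 group, so that no samples can be paired across groups. Differences between genes were already formed within each library. With 3 libraries of at most about 6037000 fragments, levels under about 1 FPKM rested on few fragments.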
